A study of Mus musculus with 10 samples.

Results

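Open chromatin regions found in mouse epiblast stem cells (EpiSC) and in neural stem cells (NSC), and in neither embryonic stem cells (ESC) nor embryonic fibroblasts (MEF), are described here. The regions were selected on overlap: the autosomal sites of the 4 deposited FAIRE-seq lists were merged wherever they shared at least 1 bp, and a region was kept where it held EpiSC and NSC sites and no site of ESC or MEF. This gave 36901 regions of the 1121520 merged autosomal regions, or 3.29% (exact 95% interval 3.26 to 3.32). They are called EpiSC-NSC regions below. FAIRE-seq sequences the DNA that stays in the aqueous phase when crosslinked, sheared chromatin is extracted with phenol and chloroform, which is DNA poor in nucleosomes. EpiSC were cells of the E3 line, expanded on mitotically inactivated fibroblast feeders with 5 ng/ml FGF2 and moved to fibronectin without feeders 2 days before crosslinking. NSC were progenitors of the neural lineage that had been made from ES cells and were grown in 10 ng/ml each of FGF2 and EGF. ESC were E14 cells in serum-free medium with LIF and inhibitors of MEK and GSK3. MEF came from E16.5 embryos and were grown in serum. The labels give 2 samples of each cell type, of which 1 carries the site list used here, so that each cell type is represented by 1 list. EpiSC and ESC each stand for a single line. The source label of the MEF samples names NSC chromatin, while their titles and cell type name fibroblasts, and they are called MEF on those grounds. The cell types could not be checked against marker genes, because no gene annotation of build mm9, the build of the lists, was used here. For the same reason no region is tied to a gene and no sequence is shown.

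EpiSC represent the primed state of pluripotency, reached after the embryo implants, and depend on FGF signalling, whereas ESC held with a MEK inhibitor have that pathway blocked downstream of its receptor. NSC proliferate in response to FGF2 and EGF and arise from neural ectoderm, a derivative of the epiblast. Nucleosome-poor DNA away from promoters often marks enhancers, and the set of open enhancers differs more between cell types than the set of open promoters.

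The autosomal lists held 387312 sites in EpiSC, 551649 in NSC, 438802 in ESC and 424647 in MEF. EpiSC-NSC regions took in 37620 EpiSC sites, which was 9.71% of that list, and 37766 NSC sites, which was 6.85%. They spanned 20.4 Mb in all. Among the 6 combinations made of exactly a pair of lists, they came after NSC with MEF (71554 regions) and EpiSC with ESC (61376), and before NSC with ESC (34111), EpiSC with MEF (21525) and ESC with MEF (19613). The read depth behind each list is unknown, and a longer list meets more sites of any other. With 1 list per cell type there was no spread between replicates, so no test between cell types was made, and the intervals given cover counting error only.

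**Figure D1:**
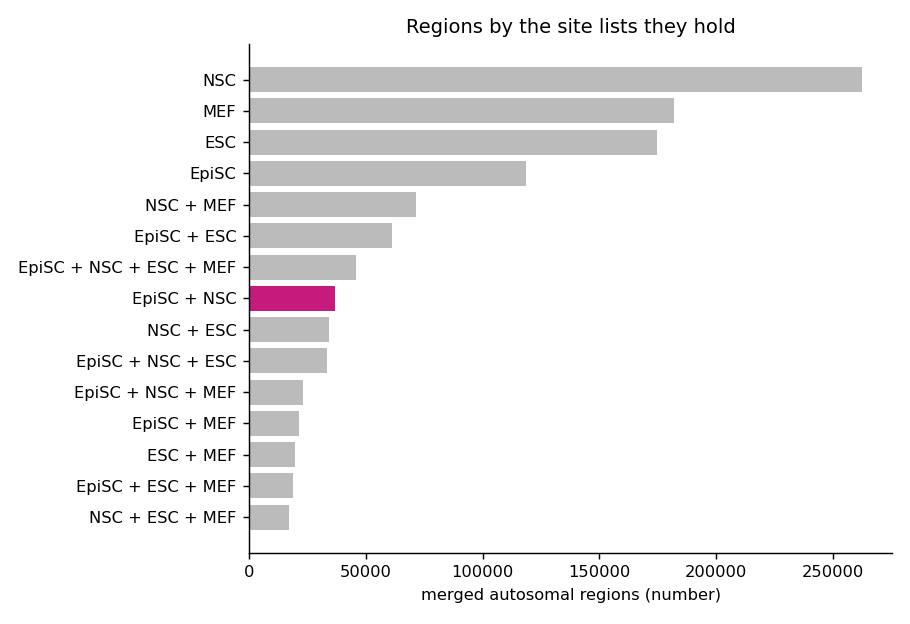
Number of merged autosomal regions (horizontal axis) for each of the 15 combinations of site lists (vertical axis), with EpiSC + NSC, the regions described here, in colour. With 36901 regions they were the third most frequent of the pairs, behind NSC + MEF and EpiSC + ESC.

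Most chromatin open in both EpiSC and NSC was also open elsewhere. Of the 139376 merged regions with sites of both lists, 26.5% (26.2 to 26.7) held neither an ESC nor a MEF site. A further 24.1% also held an ESC site and no MEF site, 16.4% a MEF site and no ESC site, and 33.0% held sites of all 4 lists. The share that was private to its pair was 26.1% for NSC with ESC (130877 regions with both), 19.7% for EpiSC with MEF (109242) and 19.3% for ESC with MEF (101621). It was higher for EpiSC with ESC, at 38.4%, and for NSC with MEF, at 45.4%. When every list was cut to its 387312 sites of highest score, the length of the EpiSC list, the share was 26.7% for EpiSC with NSC, against 21.4% for NSC with ESC and 25.4% for EpiSC with MEF. The private share of EpiSC with NSC was thus the highest of the 4 pairs of a pluripotent with a somatic cell type on either footing, ESC with MEF being at 22.0%, though its lead was small.

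The somatic partner of EpiSC regions without ESC sites was then compared with that of ESC regions without EpiSC sites. Of the 200064 merged regions with EpiSC and no ESC sites, 18.4% held NSC and no MEF sites, these being the EpiSC-NSC regions, 10.8% held MEF and no NSC sites, and 11.5% held both. Of the 245697 regions with ESC and no EpiSC sites, 13.9% held NSC alone, 7.98% MEF alone and 7.01% both. Each share was thus higher on the EpiSC side. The balance between the partners was similar: NSC alone was 1.71 times as frequent as MEF alone with EpiSC (1.69 to 1.74) and 1.74 times with ESC (1.71 to 1.77). With lists cut to equal length these ratios were 1.07 (1.05 to 1.09) and 0.967 (0.947 to 0.987), so the lead of NSC over MEF moved with the length of the lists. The EpiSC had grown on feeder fibroblasts, and the part of this in their overlap with MEF was not tested.

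EpiSC-NSC regions were simple in make-up. In 35417 of them (95.98%) a single EpiSC site met a single NSC site. In 776 there was 1 EpiSC site with 2 NSC sites and in 617 there were 2 EpiSC sites with 1 NSC site. In 91 regions (0.247%) there were 4 sites or more. Their median width was 477 bp (quartiles 355 and 657), with a range of 54 to 5854 bp. This was close to the 471 bp of regions of EpiSC with MEF alone and below the 535 bp of NSC with ESC alone, the 586 bp of EpiSC with ESC alone and the 516 bp of NSC with MEF alone. Regions of all 4 lists had a median width of 1376 bp.

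Where 1 site met 1 site, the NSC site was usually the wider. It was wider in 58.8% of these regions (58.3 to 59.3), with a median of 295 bp for the EpiSC site and 345 bp for the NSC site. Over the whole autosomal lists the median widths were nearly equal, at 338 bp in EpiSC and 334 bp in NSC. The EpiSC site lay wholly inside the NSC site in 27.0% of cases and the NSC site inside the EpiSC site in 15.9%, and the edges crossed in the remaining 57.1%. The sites shared a median of 197 bp, or 95.3% of the shorter site, and their midpoints lay a median of 94 bp apart. This offset was 102 bp for EpiSC with MEF alone, 105 bp for NSC with ESC alone and 90 bp for EpiSC with ESC alone. In 136 regions the pair shared the same start, in 126 the same end and in none both.

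Members at the limit of the rule were few. In 314 regions (0.851%) the EpiSC and NSC sites shared 1 to 10 bp. The first of these in genome order were on chromosome 1, at 4016724 to 4017560 with 6 shared bp, 25125760 to 25126336 with 4 and 25538665 to 25539140 with 6. Just outside the rule were 311 places where an EpiSC-only and an NSC-only region lay at most 10 bp apart, such as chromosome 1 from 8310725 to 8311109 with a gap of 3 bp, 34264596 to 34265323 with a gap of 4 bp, and 38751466 to 38752106 with a gap of 1 bp. The median EpiSC score was 2.84 inside and 3.10 outside, and the median NSC score was 3.58 inside and 3.91 outside. In 129 other regions the EpiSC and NSC sites overlapped and were touched by ESC or MEF sites over at most 10 bp.

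The authors gave each site a score, whose unit and scale are not stated, so scores are read here within a list, as values or as percentiles of all autosomal sites of that list. A region takes its highest site of each list. EpiSC-NSC regions covered the whole range of both lists. Their median EpiSC score was 2.97 (quartiles 2.02 and 4.56, highest 23.9), at the 51.4th percentile, and their median NSC score was 3.70 (2.22 and 5.88, highest 38.7), at the 46.5th percentile. They therefore sat near the middle of the EpiSC list and slightly under the middle of the NSC list. In bulk chromatin, a site open in few cells and a site weakly open in many cannot be told apart by its score.

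Within each list, sites in EpiSC-NSC regions held a different place. EpiSC sites in them had a median score of 2.95 (n = 37620), against 2.61 for EpiSC sites in no other list, 2.99 for those shared with MEF alone, 2.33 for those shared with ESC alone and 3.85 for those in all lists. NSC sites in them had a median of 3.67 (n = 37766), against 3.96 for NSC sites in no other list, 4.61 for those shared with MEF alone, 2.77 for those shared with ESC alone and 4.68 for those in all lists. Thus EpiSC sites scored above the sites private to EpiSC, and NSC sites scored below the sites private to NSC. Among sites 250 to 350 bp wide, where width is held nearly equal, the EpiSC medians were 2.74 in EpiSC-NSC regions, 2.39 for EpiSC alone, 2.73 with MEF alone, 2.10 with ESC alone and 2.77 in all lists. The NSC medians at that width were 3.11 in EpiSC-NSC regions, 3.61 for NSC alone, 4.02 with MEF alone, 2.29 with ESC alone and 2.92 in all lists. EpiSC-NSC regions thus kept their place above EpiSC-only and below NSC-only sites. The lead of sites in all lists over sites in EpiSC-NSC regions was nearly gone in EpiSC and had turned round in NSC. These scores come from the lists that chose the regions and are given as a description.

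The EpiSC and NSC scores of a region went together loosely. Across the 36901 regions the Spearman correlation was 0.34, as a description across regions of the same libraries. It was 0.33 for EpiSC with MEF alone and for NSC with MEF alone, 0.25 for EpiSC with ESC alone, 0.16 for NSC with ESC alone and 0.13 for ESC with MEF alone. Among the 7008 regions with an EpiSC score under the 25th percentile, 10.5% reached the 75th percentile of NSC scores and the median NSC score was 2.43. Among the 9237 at or above the 75th EpiSC percentile, 36.6% did so and the median NSC score was 5.17. Both scores were at or above the 75th percentile in 3382 regions (9.17%), where 15.3% of all merged regions with EpiSC and NSC sites reached that mark. Both were at or above the 95th percentile in 249 regions (0.675%), against 1.5% of all merged regions with both sites. By both marks EpiSC-NSC regions were less often strong than regions with EpiSC and NSC sites in general, which include the wide regions of all 4 lists, and a region takes the highest of its sites. Among single sites 250 to 350 bp wide, as given above, the median in EpiSC-NSC regions was close to that of sites in all lists in EpiSC and above it in NSC. Another 3382 regions were under the 25th percentile in both lists. Opposed pairs were the least frequent, with 1135 regions high in EpiSC and low in NSC by these quartiles and 737 high in NSC and low in EpiSC.

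**Figure D2:**
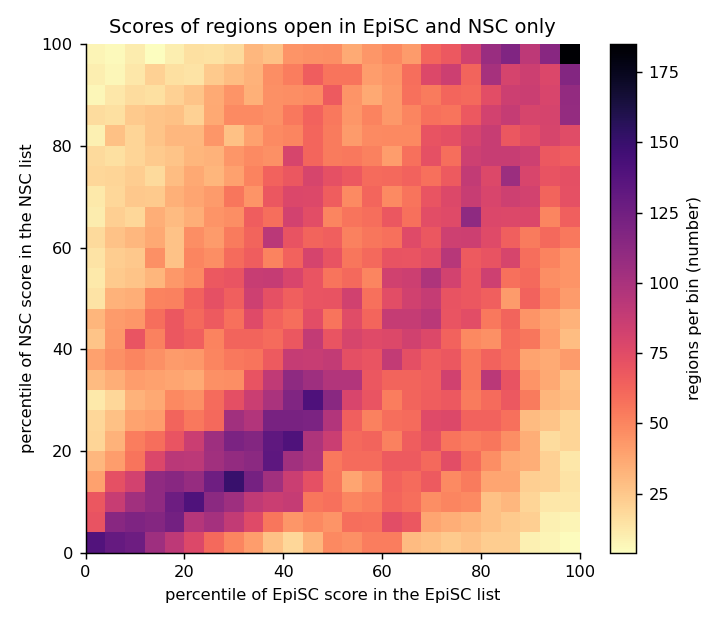
Percentile of the EpiSC score within the EpiSC list (horizontal axis) and of the NSC score within the NSC list (vertical axis) for the 36901 EpiSC-NSC regions, as the number of regions per bin of 4 by 4 percentiles (colour). Regions gathered along bands of jointly low and jointly high scores, with 185 in the top corner bin and few in the corners of opposed scores.

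EpiSC-NSC regions hold no ESC or MEF site by the rule, but were seldom far from sites of those cells. The median distance from an EpiSC-NSC region to the nearest MEF site was 1542 bp (quartiles 601 and 3427), and to the nearest ESC site 1910 bp (658 and 5798). A total of 20963 regions (56.8%) had an ESC or MEF site within 1 kb, and 94.7% had one within 5 kb. With only the upper 50% of scores in each list, the share within 1 kb was 37.0%. The distances to ESC were more spread: 6021 regions (16.3%) lay over 10 kb from any ESC site, and 1679 (4.55%) over 10 kb from any MEF site. Only 387 (1.05%) were over 10 kb from both. No ESC site at all lay within 50 kb of 919 regions, and no MEF site within 50 kb of 27.

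These distances were close to those of the most similar combinations. From regions of EpiSC with MEF alone the median distance to ESC was 2084 bp, with 32.6% within 1 kb, against 1910 bp and 34.0% from EpiSC-NSC regions. From regions of EpiSC alone it was 1847 bp with 35.3%. Regions of NSC alone stood further off, at 3772 bp with 23.4%. Toward MEF the median was 1542 bp with 37.3% within 1 kb from EpiSC-NSC regions, 1578 bp with 36.3% from regions of NSC with ESC alone, 1612 bp with 36.2% from regions of NSC alone and 1987 bp with 30.7% from regions of EpiSC alone. EpiSC-NSC regions thus lay about as far from ESC sites as other EpiSC regions did, and about as far from MEF sites as other NSC regions did.

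The surroundings showed the same mixture. Within 50 kb on either side, the median EpiSC-NSC region had 21 other EpiSC sites, 33 other NSC sites, 19 ESC sites and 20 MEF sites. Around regions of EpiSC alone these medians were 21, 21, 20 and 17, and around regions of NSC alone they were 14, 33, 9 and 19. The neighbours of EpiSC-NSC regions along the chromosome were most often regions of NSC alone, which made up 28.5% of them, whereas they made up 23.4% of all neighbours. Another EpiSC-NSC region was the neighbour in 4.95% of cases, against 3.29% over all regions. Regions of ESC alone were 10.98% of the neighbours, against 15.6% over all regions.

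In the full lists, the strongest and the weakest regions were about equally often close to such sites, and the classes between them slightly less often. Of the 249 with both scores at or above the 95th percentile, 59.0% (52.7 to 65.2) lay within 1 kb of an ESC or MEF site. Of the 13752 whose lower score was under the 25th percentile, 58.3% did (57.4 to 59.1). With the lower score from the 25th to the 50th percentile it was 56.0% of 12341, and from the 50th to the 75th 56.5% of 7426. From the 75th to the 95th it was 54.2% (52.5 to 56.0) of 3133. The median distance to ESC was 2464 bp in the strongest class and 1573 bp in the weakest, and the median distance to MEF was 1128 bp in the strongest and 1622 bp in the weakest.

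**Figure D3:**
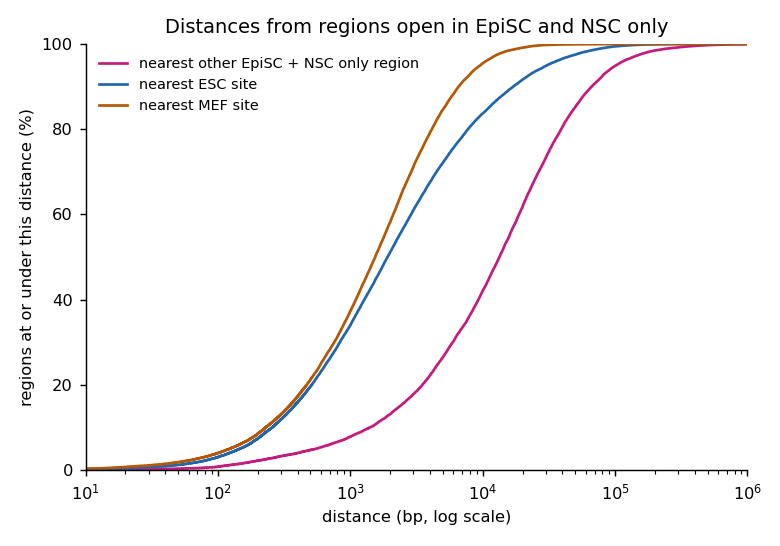
Share of the 36901 EpiSC-NSC regions (vertical axis, %) that lie at or under a given distance (horizontal axis, bp, log scale) from another such region, from an ESC site or from a MEF site. The median distances were 13382 bp, 1910 bp and 1542 bp, and the ESC curve reaches its end later than the MEF curve.

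EpiSC-NSC regions were found on every autosome in unequal measure. They ranged from 9.26 per Mb on chromosome 7 to 20.5 on chromosome 19 and 21.3 on chromosome 11. The count per Mb rose with the density of EpiSC sites (Spearman correlation 0.72 across the 19 autosomes) and of NSC sites (0.70). The value was 0.63 with the density of MEF sites and 0.26 with that of ESC sites. A region needs a site of EpiSC and of NSC, so the unequal counts are not shown to be particular to these regions. As a share of the merged regions with EpiSC and NSC sites, EpiSC-NSC regions were lowest on chromosome 8, at 18.4% (17.5 to 19.3). They were highest on chromosome 14, at 33.8% (32.6 to 34.9), with 31.4% on chromosome 3 and 30.3% on chromosome 1. Chromosome 11, rich in regions per Mb, had a share of 21.9%. Chromosome 8 held 253 ESC sites per Mb and chromosome 11 held 258, where chromosome 3 held 129 and chromosome 14 held 136. Across the 19 autosomes the share fell with the density of ESC sites, with a Spearman correlation of -0.89, and this is given as a description: the rule excludes ESC sites, so the share depends on their density by definition. The correlation was -0.34 with the density of MEF sites, which the rule excludes too, -0.55 with that of EpiSC sites and 0.28 with that of NSC sites. Chromosome 7 lay off this trend, with a share of 20.7% at 176 ESC sites per Mb.

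**Figure D4:**
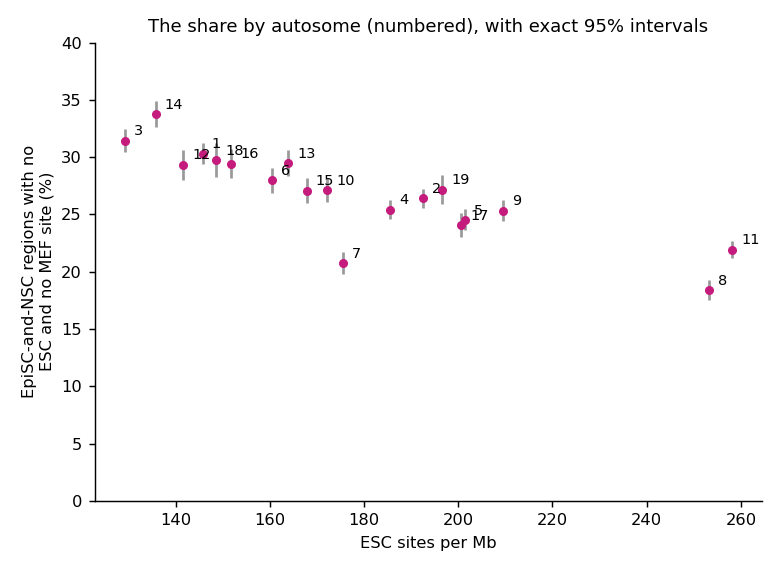
Share of merged regions with EpiSC and NSC sites that hold no ESC and no MEF site (vertical axis, %, with exact 95% intervals of counting as bars) against the number of ESC sites per Mb (horizontal axis), 1 point for each autosome, numbered. The share runs from 33.8% on chromosome 14 to 18.4% on chromosome 8.

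The high share of chromosome 14 lay in its distal part. Between 86000001 and 121000000, a stretch in which NSC sites are dense, there were 1030 EpiSC-NSC regions, or 29.4 per Mb, and they made up 43.7% (41.7 to 45.8) of the regions with EpiSC and NSC sites. On the rest of the chromosome there were 1177, or 13.1 per Mb, at 28.1% (26.8 to 29.5). The limits of the stretch were chosen with earlier results of these data known, so its high values are given as a description. The median NSC score of EpiSC-NSC regions was 7.39 in the distal part and 3.09 on the rest, while the median EpiSC score was 3.25 and 3.15. NSC scores of EpiSC-NSC regions thus differed along the chromosome and their EpiSC scores hardly did. Over the whole of chromosome 14 the median of all NSC sites was 4.94, the highest of any autosome, against 4.49 for EpiSC-NSC regions. Over the whole chromosome, high NSC scores were therefore not particular to these regions. The median of all NSC sites in the distal part was not computed, so the 7.39 there cannot be set against it. EpiSC scores of EpiSC-NSC regions were lowest on chromosome 12, with a median of 2.45, where the median of all EpiSC sites was 2.31, and highest on chromosome 15, at 3.34 with 3.12 for all EpiSC sites.

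The regions were scattered with local gatherings. The median distance to the nearest other EpiSC-NSC region was 13382 bp (quartiles 4614 and 31936). Of the 24731 autosomal windows of 100 kb, 14861 (60.1%) held at least 1, 1809 held 5 or more and 95 held 10 or more. The densest 10% of windows held 37.7% of EpiSC-NSC regions, against 42.3% of the 21525 regions of EpiSC with MEF alone, 41.8% of the 34111 of NSC with ESC alone, 41.8% of the 61376 of EpiSC with ESC alone and 38.4% of the 71554 of NSC with MEF alone. Rarer features gather more by counting alone. EpiSC-NSC regions had the lowest of these values although 2 of the other sets were larger. In the merged catalogue 33363 stood alone among other regions, 1597 runs held 2 in a row, 108 held 3 and 5 held 4. The runs of 4 spanned 4007 to 12316 bp, the widest on chromosome 9 from 91430144 to 91442459.

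The 100-kb windows with the most EpiSC-NSC regions were in coordinates of mm9. Chromosome 2 from 160900001 to 161000000 had 16, among 50 EpiSC, 52 NSC, 16 ESC and 24 MEF sites. A further 7 windows were tied at 15, of which 3 lay on chromosome 15 and 2 on chromosome 4. On chromosome 4 these were 8800001 to 8900000, with 56 EpiSC, 78 NSC, 39 ESC and 25 MEF sites, and 82500001 to 82600000, with 39, 55, 26 and 19 sites in the same order. Chromosome 11 from 111700001 to 111800000 had 36 EpiSC, 63 NSC, 8 ESC and 32 MEF sites. Chromosome 14 from 115600001 to 115700000, inside the distal part with dense NSC sites, had 26 EpiSC, 68 NSC, 8 ESC and 8 MEF sites. On chromosome 15 the windows were 27900001 to 28000000 with 66 EpiSC, 65 NSC, 48 ESC and 34 MEF sites, 90100001 to 90200000 with 30, 86, 0 and 22, and 91000001 to 91100000 with 32, 61, 7 and 18. In these 8 windows NSC sites numbered 52 to 86 while ESC sites ranged from 0 to 48, so windows rich in EpiSC-NSC regions were found where ESC had many sites as well as where it had none.

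The window on chromosome 15 without ESC sites was looked at region by region. Its 15 EpiSC-NSC regions covered 12039 bp. Their EpiSC scores ran from 1.94 to 14.5 with a median of 3.74, and their NSC scores from 1.53 to 16.9 with a median of 8.92. The region at 90142739 to 90143065 had the highest EpiSC score of the window, 14.5, at the 99.7th percentile of its list, with an NSC score of 6.45. The region at 90161421 to 90165678, 4258 bp wide, had the highest NSC score, 16.9, with an EpiSC score of 8.05. Close to that NSC score was the region at 90193515 to 90194098, with 16.9, and an EpiSC score of 4.97. The weakest in NSC, at 90178974 to 90179374, had an NSC score of 1.53 and an EpiSC score of 2.23. The region with the highest NSC score was thus also the second in EpiSC, whereas the region with the highest EpiSC score stood near the middle of the NSC scores. In the chromosome 4 window that starts at 8800001 the ranges were narrower, with EpiSC scores of 1.41 to 9.04 and NSC scores of 1.55 to 8.73.

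**Figure D5:**
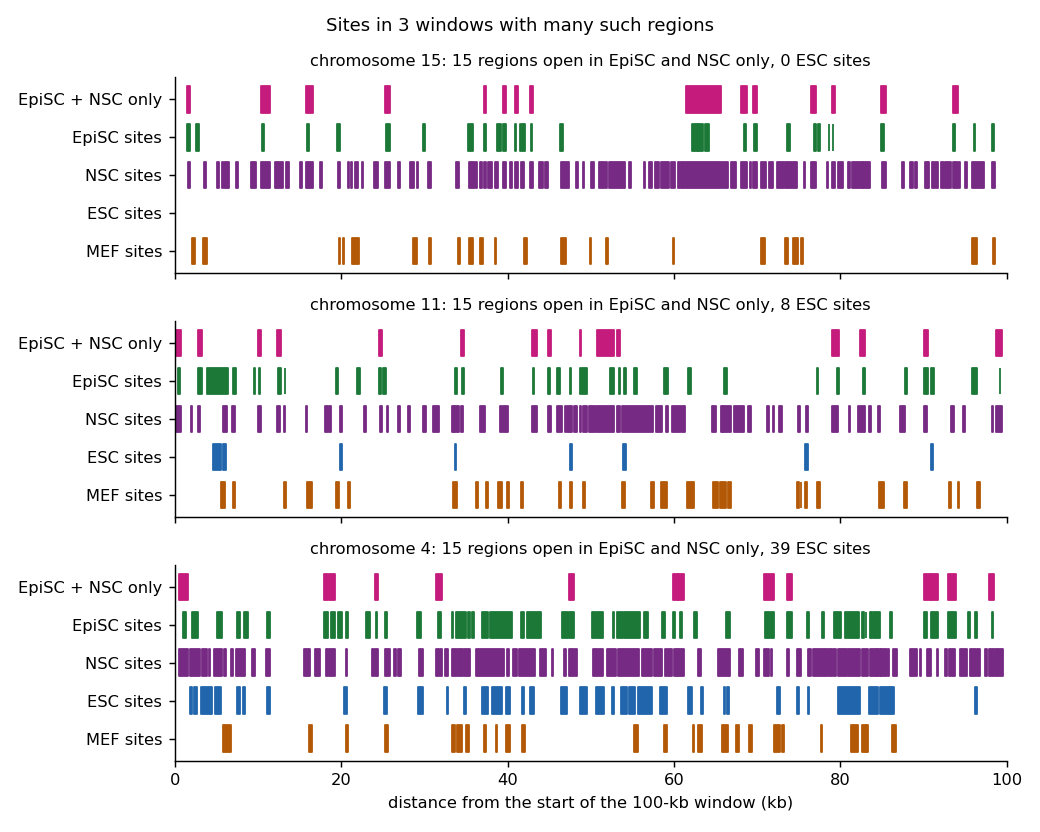
EpiSC-NSC regions and the sites of the EpiSC, NSC, ESC and MEF lists (rows) along 3 of the 100-kb windows, by distance from the start of the window (horizontal axis, kb), each bar drawn over the span of its site. Each window holds 15 EpiSC-NSC regions, beside 0 ESC sites on chromosome 15, 8 on chromosome 11 and 39 on chromosome 4.

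The strongest EpiSC-NSC regions were taken as the 10 whose lower percentile of the pair of scores was highest, at least 99.5 in each. They were 288 to 1363 bp wide, with EpiSC scores of 13.7 to 20.9 and NSC scores of 19.4 to 26.9. The first, on chromosome 4 from 75621057 to 75621394, had an EpiSC score of 17.7 and an NSC score of 23.1, its nearest ESC site being 213 bp away. On chromosome 14, 118849408 to 118849722 had an EpiSC score of 16.4 and an NSC score of 26.9, the highest NSC score of the 10; its EpiSC site of 81 bp lay wholly inside the NSC site. On chromosome 8, 63622352 to 63622639 had an EpiSC score of 15.5 and an NSC score of 22.6. That strong sites of both lists meet at these places follows from how the regions were picked.

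A further pair lay on chromosome 8, at 70698848 to 70699362 and at 37264919 to 37265271, with NSC scores of 20.02 and 20.01, and with EpiSC scores of 15.5 and 15.0. The region on chromosome 19 from 60386425 to 60386865 scored 14.1 in EpiSC and 24.3 in NSC, and the region on chromosome 11 from 105587152 to 105587510 scored 14.5 in EpiSC and 20.03 in NSC. The highest EpiSC score of the 10, 20.9, was on chromosome 15 at 102118446 to 102118901, with 19.9 in NSC. On chromosome 4, 74858435 to 74859278 (EpiSC 13.7, NSC 21.3) stood 63159 bp from the nearest ESC site and 398 bp from the nearest MEF site, and 81219293 to 81220655 (EpiSC 18.1, NSC 19.4) lay inside a run of 4 EpiSC-NSC regions from 81217386 to 81222503. Of the 10 regions, 3 were within 1 kb of an ESC site, 6 within 1 kb of a MEF site and 7 within 1 kb of either. Over all EpiSC-NSC regions these shares were 34.0%, 37.3% and 56.8%, and 10 regions are too few to be set apart from them.

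In wide regions NSC sites mostly covered more bases than EpiSC sites. Of the 217 EpiSC-NSC regions of 2 kb or more, 203 (93.5%) had more bases in NSC than in EpiSC sites. Over all regions of 1 EpiSC and 1 NSC site, the NSC site was the wider in 58.8%. Of the 217, 59 lay in the distal part of chromosome 14, which held 1030 of all 36901 EpiSC-NSC regions. How often each list holds such wide sites was not counted, so this is not shown to be particular to these regions. The median scores of the 217 were 2.76 in EpiSC and 8.59 in NSC. The widest was on chromosome 6 from 114242733 to 114248586, where an NSC site of 5854 bp took in an EpiSC site of 634 bp. Next came chromosome 14 from 100670726 to 100675741 and from 120266354 to 120271011, chromosome 7 from 128730153 to 128734419, and the region of 4258 bp on chromosome 15 described above. In each of these 5 a single NSC site spanned the whole region. The regions with the most sites were 9 with 5 sites each, 1105 to 3606 bp wide; that on chromosome 19 from 41095995 to 41099600 joined 4 EpiSC sites to 1 NSC site, and that on chromosome 1 from 191950396 to 191953094 joined 3 EpiSC and 2 NSC sites, with an EpiSC score of 8.35 and an NSC score of 5.81.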

How the data were processed

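FAIRE-seq lists of EpiSC, NSC, ESC and MEF were used, 1 list per cell type; the other 6 samples, the genomic DNA control among them, were not analysed here. The submitters' processing notes name CASAVA 1.8 and build mm9. Not given in the sources used here are the aligner, the thresholds, how the control entered and any pooling of replicates. Each deposited site carries the authors' score, without a stated unit, and a display score. Read depth is unknown.

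Autosomal sites, as 0-based intervals printed 1-based, were merged where they shared 1 bp or more, and each region was labelled by the lists it held. The regions were counted again under 8 alternatives. Merging was tested on simulated data and gave the same 36901 and 1121520 regions as bedtools 2.31.1. Percentiles are ranks of a score among the autosomal sites of its list. Intervals of shares are exact (Clopper-Pearson, 95%), for counting error alone; regions near each other are not independent. Named were the 10 regions with the highest lower percentile, the 5 widest, those with the most sites, the 100-kb windows with the most regions (ties included) and up to 3 regions on each side of the limit of the rule. The regions, measures and limits of distal chromosome 14 were chosen with earlier results of these data known; the fixed width of 250 to 350 bp, windows of 50 and 200 kb, and the region-by-region account of a window were added after their values were seen. The planned motifs, base composition and gene lists were not run, since no genome or annotation of mm9 was used here. Computation was in Python 3.11.15 (scipy 1.17.1, pandas 2.3.3, numpy 2.4.6), with figures by matplotlib 3.10.9.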

Additional observations from a re-analysis of the deposited data

Results flagged for a closer look

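The X chromosome lay outside the autosomal rule and holds signal that no comparison used. NSC had 4219 sites there, and EpiSC had none, beside 2992 in ESC and 7244 in MEF. The EpiSC list held no site on the Y chromosome either. Whether the sex chromosomes were left out of that list is not stated, so the absence is not read as closed chromatin. Dropping the limit to autosomes therefore adds no EpiSC-NSC region from the X chromosome.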

How the results depend on the processing

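The number of EpiSC-NSC regions was 16679 with only the upper 50% of scores in each list and 15938 where no ESC or MEF site lay within 1 kb; under the other 6 it stayed within 1.5 times of 36901, from 26567 with lists of equal length to 36320. The share of regions with EpiSC and NSC sites that held neither ESC nor MEF was 23.1% with sites up to 200 bp apart merged, 32.4% with the 50% highest scores, 11.4% with the 1-kb margin, 26.2% without distal chromosome 14 and 27.1% without chromosomes 7, 11, 12 and 18. The median distance to the nearest other EpiSC-NSC region was 15343 bp where sites had to share 50% of the shorter, 15709 bp with merging over 200 bp, 25856 bp with the 50% highest scores, 17527 bp with lists of equal length, 28847 bp with the margin and 13655 bp without distal chromosome 14. The share within 1 kb of an ESC or MEF site was 47.0% with merging over 200 bp, 37.0% with the 50% highest scores and 53.6% with lists of equal length. The ratio of EpiSC-NSC regions to regions of EpiSC with MEF alone was 1.81 with the 50% overlap, 1.60 with merging, 1.68 with the 50% highest scores, 1.07 with lists of equal length and 1.67 without distal chromosome 14. Fewer sites or regions lower the counts and raise the distances by construction; otherwise the cause was not tested. The most regions in a window, 16, became 12 in windows of 50 kb and 29 in windows of 200 kb, and EpiSC sites 250 to 350 bp wide lay in EpiSC-NSC regions in 11.7% of cases, against 9.71% of all EpiSC sites. Leaving out a replicate was not possible with 1 list per cell type. No paired analysis was possible because the cell types had 1 list each and no test was made. The analyses of motifs, base composition and gene positions were not run. The unknown depth limits every comparison of list lengths.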

Other observations

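Windows with many EpiSC-NSC regions and no ESC site were searched for after the data were seen. Of the 1809 windows of 100 kb with 5 or more such regions, 22 had no ESC site and none lacked MEF sites. The share of all windows without ESC or without MEF sites was not counted, so the difference between ESC and MEF is not read as a trait of these regions. The first of the 22 was the chromosome 15 window at 90100001 to 90200000. Next came chromosome 12 from 26400001 to 26500000, with 9 EpiSC-NSC regions among 16 EpiSC, 45 NSC and 17 MEF sites. A window on chromosome 12 nearby, 26200001 to 26300000, had 6 among 15, 45 and 30. Chromosome 14 had 8 in each of the windows that start at 98000001 and 116000001. Chromosome 19 had 8 at 50400001 to 50500000 and 6 in the window before it, at 50300001 to 50400000. Chromosome 16 had 5 in each of the adjoining windows that start at 41500001 and 41600001. Such windows thus lay side by side on chromosomes 19 and 16, but how often windows without ESC sites adjoin in general was not counted.

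By bins of 1 Mb, the most EpiSC-NSC regions were on chromosome 14 from 115000001 to 116000000, with 82 among 164 EpiSC, 738 NSC, 58 ESC and 153 MEF sites. Chromosome 12 followed, from 118000001 to 119000000, with 75 among 270 EpiSC, 471 NSC, 222 ESC and 99 MEF sites. The adjoining bins on chromosome 15 that start at 90000001 and 91000001 had 70 each.

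Single regions with a very high score in 1 list and a lower one in the other were also seen. The highest EpiSC score of an EpiSC-NSC region, 23.9, was on chromosome 17 at 66816932 to 66817102, 171 bp wide, with an NSC score of 9.51. The highest NSC score, 38.7, was on chromosome 15 at 92265091 to 92265251, 161 bp wide, with an EpiSC score of 9.49. Among regions with no ESC or MEF site within 10 kb, the strongest in both lists was on chromosome 6 at 79337966 to 79338773, with an EpiSC score of 13.5 and an NSC score of 16.4. It stood 55474 bp from the nearest ESC site and 20228 bp from the nearest MEF site. These single regions have no replicate check.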
